A study of Mus musculus with 2 samples.

Results

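The genes of the ionotropic and metabotropic glutamate receptors and of the GABA-A receptors were followed across the cell classes of mouse cerebral cortex. They were taken by symbol (Gria, Grid, Grik and Grin genes followed by a digit, Grm genes followed by a digit, and Gabr genes followed by a letter), which gave 47 of the 30905 genes in the matrix. Of these, 41 had at least 20 UMIs (unique molecular identifiers, each marking 1 captured RNA molecule) and enter the counts below. The 6 genes below that number were Gabra6 (9 UMIs), Gabre (18), Gabrp (11), Gabrr1 (12), Gabrr3 (17) and Grm6 (0). The symbol rule also took in Grid2ip, a scaffold protein gene, and Grin1os, a noncoding RNA gene read from the opposite strand within Grin1. Neither encodes a receptor subunit, so 39 receptor subunit genes remained. Counts of receptor genes below are over all genes taken by symbol, Grid2ip and Grin1os included. Nuclei came from frozen cortex of C57BL/6 wild-type mice that had normal food and received no treatment. One sample pooled 3 mice aged 18 months and the other pooled 3 mice aged 2 months. Both samples lie in 1 matrix whose barcodes carry 1 of 2 suffixes, called library 1 and library 2. The labels tie neither suffix to an age, so the matrix counted as 1 sample. No comparison between ages and no test was made, there were no replicates, and the libraries are shown side by side. Every pair of values below is in the order library 1, library 2.

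Glutamate released at excitatory synapses opens 3 families of ion channels, the AMPA, kainate and NMDA receptors, each built from subunits encoded by separate genes, and it also acts on metabotropic receptors that signal through G proteins. GABA released by interneurons opens GABA-A receptors, chloride channels of 5 subunits that usually combine alpha, beta and gamma or delta subunits. The subunit mix sets how fast such a channel closes, whether it passes calcium and where on the neuron it sits. Delta glutamate receptors are related in sequence but act mainly as synapse-organising proteins. Glia carry some of these receptors too: astrocytes sense glutamate through metabotropic receptors, and oligodendrocyte precursors receive synapses from neurons.

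After filtering, 8286 and 7954 nuclei remained, with medians of 5992 and 6450 UMIs per barcode before filtering, and 19 barcode sequences occurred in both libraries. Nuclei were clustered with the receptor genes held out, and clusters were named by markers, so each class name stands for nuclei with the markers of that type. Some subtype names rest on part of their markers. Among excitatory classes, 3 and 3 of 5 upper-layer, 3 and 3 of 6 deep intratelencephalic and 3 and 4 of 5 CA1 markers were highest in their own class. The counts were 3 and 3 of 5 for both layer 5 extratelencephalic and layer 6 corticothalamic neurons. They were 4 and 3 of 5 for middle-layer and 4 and 4 of 5 for layer 6b neurons. All near-projecting (5 and 5 of 5) and dentate granule markers (6 and 6 of 6) were highest in their own class. Among interneurons this held for 5 and 4 of 7 Lamp5 markers and for 7 and 7 of 7 Vip markers. A class was compared where each library held 50 or more of its nuclei, which gave 22 classes, 15 of them neuron subtypes. The tissue label is cerebral cortex, yet classes with markers of hippocampal dentate granule cells (354 and 208 nuclei), hippocampal CA1 neurons (203 and 156) and striatal projection neurons (396 and 234) were present. Clusters holding 732 and 867 nuclei stayed unnamed. Levels are CPM, the UMIs of a gene scaled to a total of 1000000 in the class, with exact 95% Poisson intervals in brackets. The intervals cover counting error alone. UMIs are not scaled by gene length, so a gene is compared here between classes and never with another gene.

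Most receptor genes were highest in a neuron subtype. This held for 30 and 31 of the 41 genes, against 34.4% and 31.5% of the 18252 genes read at 20 or more UMIs in the compared classes. In both libraries it held for 29 of the 41, against 23% of all genes. The class with the highest level was the same in both libraries for 23 of the 41 genes, against 39.6% of all genes. CA1 neurons (6 and 5 genes) and Lamp5 interneurons (5 and 6) were highest most often, with astrocytes (3 and 5) level with CA1 neurons in library 2. The share of all genes highest in each single class was not counted, so these numbers describe the receptor genes alone. Abundant neuronal genes were read in every class. Gria2, for example, had its lowest level in fibroblasts, at 665 and 583 CPM. RNA free in the droplets can give such reads, and levels in microglia, whose median depths were 1693.5 and 1989 UMIs, are set beside glial levels as a guide to that background.

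**Figure D1:**
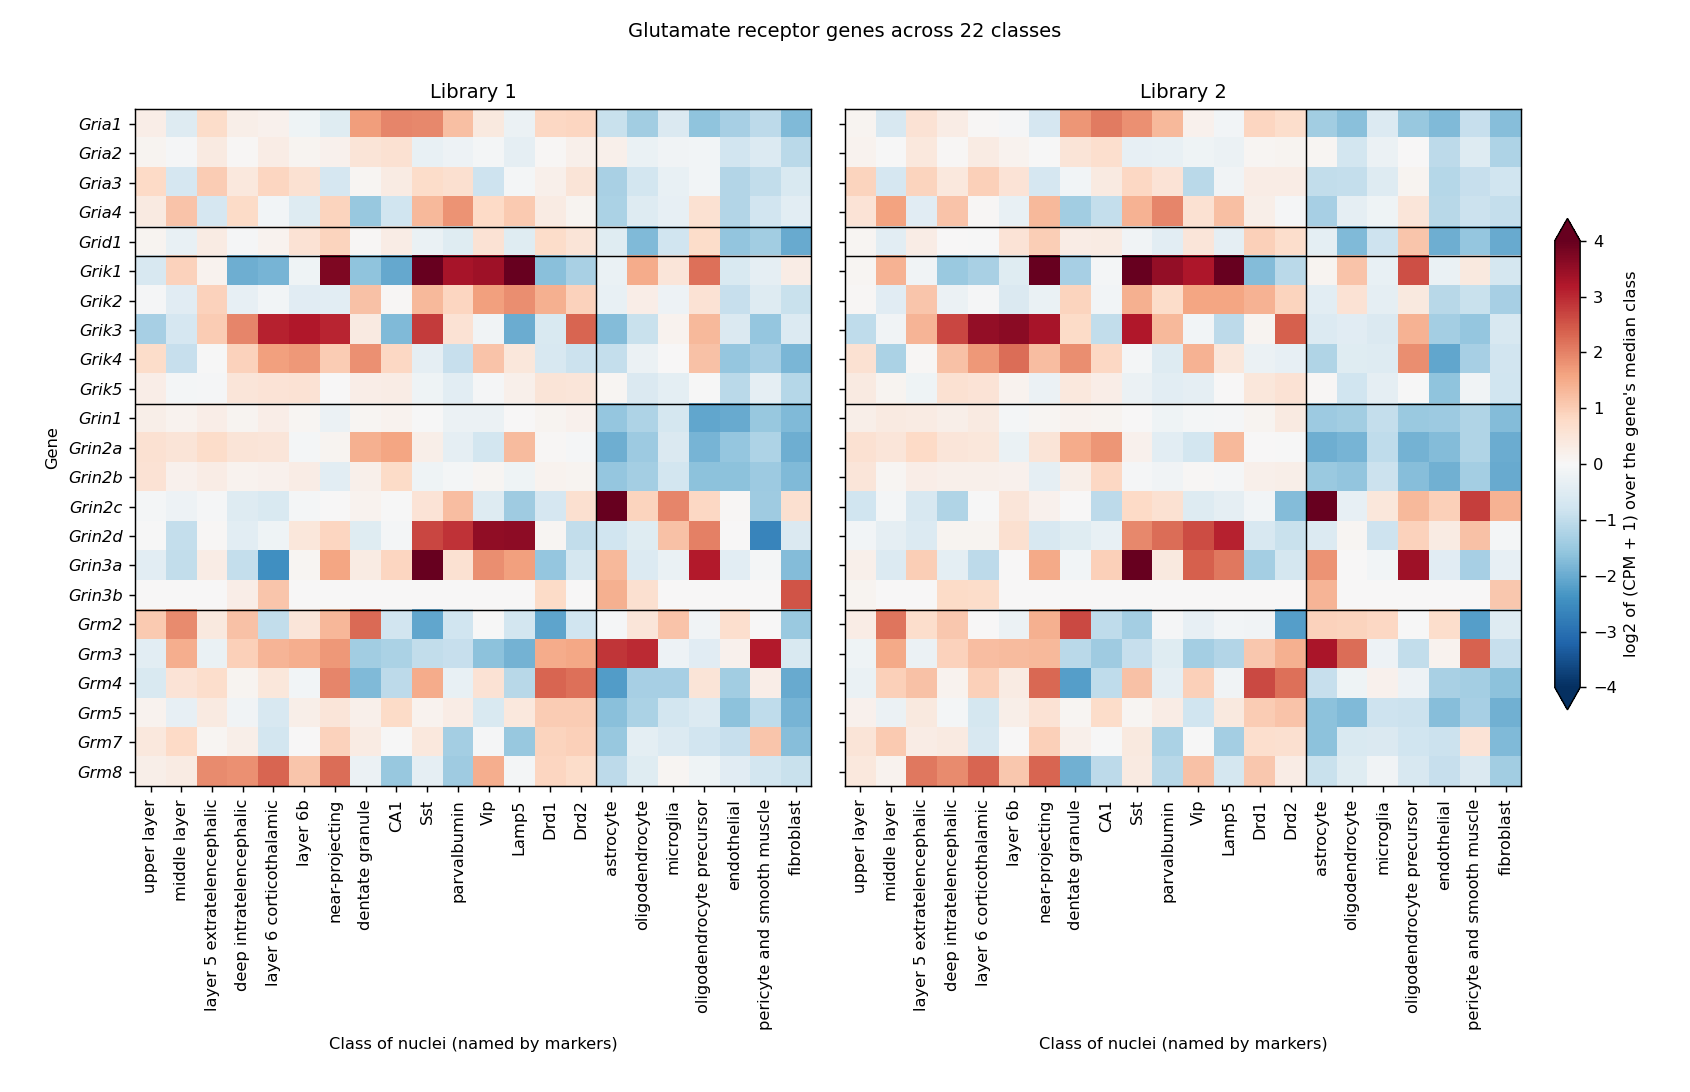
Level of the glutamate receptor genes reported here in 22 classes of nuclei, one panel per library; colour is log2 of (CPM + 1) over the gene's median class, limited at 4 and -4, horizontal lines part the receptor families and the vertical line parts neurons from other classes. Grik1 and Grin2d are dark red in the interneuron columns, Grik1 also in near-projecting neurons, Grin3a in Sst interneurons and oligodendrocyte precursors, and Grin2c in astrocytes, where it had 329 and 189.7 CPM.

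The 4 AMPA receptor genes encode the channels that carry most fast excitation. Gria1 was highest in CA1 neurons, at 4199 CPM (4106 to 4294) and 4986 CPM (4876 to 5097), and next came Sst interneurons at 4031 and 4146 CPM and dentate granule nuclei at 3417 and 3963 CPM. Its level in middle-layer neurons was 745 and 758 CPM. Gria2, whose edited subunit makes the channel nearly closed to calcium, differed by less than 2-fold among the 15 neuron subtypes. It was highest in CA1 neurons (2144 and 2184 CPM), and the 4 interneuron subtypes were the lowest in both libraries, with Sst at 1135 and 1098 CPM. Gria4 was highest in parvalbumin interneurons, at 2455 CPM (2385 to 2526) and 2633 CPM (2550 to 2717). Dentate granule nuclei read Gria4 at 248 and 259 CPM, below every other class in both libraries. Gria3 had 1590 CPM (1547 to 1635) and 1310 CPM (1272 to 1349) in layer 5 extratelencephalic neurons and 1423 CPM (1377 to 1469) and 1364 CPM (1323 to 1407) in layer 6 corticothalamic neurons, the highest classes, and the order of these classes differed between the libraries. In Vip interneurons Gria3 stood at 439 and 328 CPM.

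The delta receptor gene Grid1 had 1020 CPM (939.5 to 1105) and 1162 CPM (1084 to 1244) in near-projecting neurons and 926 CPM (847 to 1012) and 1262 CPM (1170 to 1359) in oligodendrocyte precursors, the classes that ranked first in library 1 and library 2 respectively. Microglia read it at 317 and 326 CPM and Drd1 striatal projection nuclei at 930 and 1137 CPM. The scaffold gene Grid2ip reached 13.1 and 12.6 CPM in oligodendrocyte precursors, from 7 UMIs in each library, and ranked highest there in both.

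Among the kainate receptor genes, Grik1 separated the classes most. It had 2015 CPM (1902 to 2132) and 2278 CPM (2160 to 2401) in Lamp5 interneurons, 1404 and 1544 CPM in Sst interneurons, 882 and 723 CPM in Vip interneurons and 829 and 874 CPM in parvalbumin interneurons. Near-projecting neurons, an excitatory type of the deep layers, were the exception among excitatory classes, at 1126 and 1230 CPM. The other 8 excitatory classes lay at or below the middle-layer neurons, at 158 and 199 CPM, with deep intratelencephalic neurons at 20.6 and 26 CPM. For shares of nuclei with a UMI, nuclei were thinned to 1500 UMIs and shallower ones left out, which kept 85 of 85 and 78 of 78 Lamp5, 87 of 87 and 108 of 108 near-projecting and 180 of 234 and 216 of 225 microglial nuclei. Grik1 was then detected in 71.8% (61 to 81) and 79.5% (68.8 to 87.8) of Lamp5 nuclei, 63.2% and 61.1% of near-projecting nuclei and 11.1% and 9.26% of microglia. Without thinning, over all nuclei of each class, these shares were 94.1% and 96.2%, 79.3% and 86.1% and 15% and 12%. Grik3 was lower in upper-layer than in deep-layer classes. It had 30.0 and 32.3 CPM in upper-layer neurons, 300.5 and 422 CPM in deep intratelencephalic neurons, 648 and 757 CPM in layer 6 corticothalamic neurons and 703 CPM (658 to 749.6) and 818 CPM (770.2 to 867) in layer 6b neurons. Sst interneurons (535 and 616 CPM) stood far above Lamp5 interneurons (18.5 and 31.1 CPM), and Drd2 nuclei (389 and 350.3 CPM) above Drd1 nuclei (49.8 and 70.5 CPM). Grik2, the most widely used partner of the low-affinity subunits, was highest in Lamp5 interneurons, at 3351 CPM (3206 to 3502) and 3031 CPM (2894 to 3172), with Vip interneurons at 2910 and 2977 CPM. Grik4 and Grik5 encode the high-affinity subunits, which need a partner to form a channel. Grik4 had 434 CPM (399 to 471) and 535 CPM (497 to 576) in layer 6b neurons, 462 and 406 CPM in dentate granule nuclei and 296 and 409 CPM in oligodendrocyte precursors. Grik5 was lowest among neurons in parvalbumin interneurons (92.6 and 78.9 CPM) and stood at 184 and 154 CPM in layer 6 corticothalamic neurons.

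Grin1 encodes the subunit that every NMDA receptor needs. It stood at 619.5 and 483 CPM in layer 6 corticothalamic neurons and 435 and 337 CPM in parvalbumin interneurons, against 309.5 and 197 CPM in microglia, and differed by less than 2-fold among the 15 neuron subtypes. Grin1os lies inside Grin1 on the other strand, and whether strand was used in counting is not given in the sources used here, so reads of these genes may not be told apart. Grin1os itself was read at 2.08 and 18.9 CPM in Drd1 nuclei. Grin2a and Grin2b, the main partner subunits of the forebrain, were highest in CA1 neurons. Grin2a had 4442 CPM (4347 to 4539) and 6444 CPM (6319 to 6571) there, and Grin2b had 2587 CPM (2514 to 2661) and 3344 CPM (3254 to 3435). Lamp5 interneurons read Grin2a at 3595 and 4696 CPM, whereas Vip interneurons read it at 909 and 1129 CPM. Grin2d, a subunit of slowly closing channels, was highest in Lamp5 and Vip interneurons. It had 74.1 CPM (53.8 to 99.4) and 68.7 CPM (49.5 to 92.9) in Lamp5 and 71.9 and 48.8 CPM in Vip interneurons, against 2.23 and 5.37 CPM in middle-layer and 7.58 and 11.8 CPM in layer 6b neurons. Oligodendrocyte precursors read Grin2d at 24.4 and 14.4 CPM, from 13 and 8 UMIs.

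Grin3a encodes a subunit that lowers calcium flow through NMDA receptors. It was highest in Sst interneurons, at 1259 CPM (1201 to 1320) and 1155 CPM (1096 to 1216). Oligodendrocyte precursors came second in both libraries, at 493 CPM (435 to 557) and 486 CPM (429.9 to 548). Parvalbumin interneurons had 83.7 and 59 CPM and microglia 44.7 and 41.6 CPM. Thinning kept 172 of 172 and 154 of 154 Sst nuclei, 223 of 223 and 190 of 190 parvalbumin nuclei and 132 of 133 and 156 of 156 precursors. Grin3a was then detected in 80.2% (73.5 to 85.9) and 75.3% (67.7 to 81.9) of Sst nuclei and 53.8% (44.9 to 62.5) and 50.6% (42.5 to 58.7) of precursors, against 9.87% and 8.42% of parvalbumin nuclei and 9.44% and 4.17% of microglia. Before thinning the shares were 95.9% and 96.1%, 80.5% and 76.9%, 27.4% and 23.7% and 9.4% and 7.11%. The gene lies at chr4:49661611-49845744 (GRCm38, the assembly behind mm10). Grin3b, its relative, had 28 UMIs in all nuclei, with fibroblasts at 4.71 and 1.12 CPM, and gives no order of classes.

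The metabotropic glutamate receptors fall into a group that raises calcium, to which Grm5 belongs, and groups that lower cyclic AMP (Grm2, Grm3 and Grm4, Grm7, Grm8). Grm5 was highest in Drd2 striatal projection nuclei, at 4135 CPM (4005 to 4267) and 4746 CPM (4572 to 4925), with Drd1 nuclei at 4080 and 4395 CPM and CA1 neurons at 3431 and 3634 CPM. Grm2, a presynaptic receptor, was highest in dentate granule nuclei, at 34.1 CPM (27.3 to 42) and 27.6 CPM (21.5 to 35), and stood at 3.25 and 1.27 CPM in CA1 neurons. Grm4 was highest in Drd1 nuclei, at 81.7 CPM (67.6 to 97.8) and 85.2 CPM (67.6 to 106), with Drd2 nuclei at 75.7 and 62.6 CPM and near-projecting neurons at 63.4 and 66.1 CPM. Grm8 was highest in layer 6 corticothalamic neurons, at 1247 CPM (1204 to 1290) and 1348 CPM (1307 to 1390). Near-projecting (1162 and 1332 CPM), layer 5 extratelencephalic (919.8 and 1156 CPM) and deep intratelencephalic neurons (871 and 1004 CPM) also stood above upper-layer neurons, at 293 and 354 CPM. Grm7 reached 3121 and 4159 CPM in middle-layer neurons and 3909 and 2929 CPM in pericytes and smooth muscle, and each of these classes was the highest in 1 library.

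Grm3 was a gene of glia and vessel walls in these data. It had 1307 CPM (1243 to 1375) and 2167 CPM (2087 to 2248) in astrocytes, 1441 and 1050 CPM in oligodendrocytes and 1635 CPM (1441 to 1848) and 1162 CPM (1027 to 1310) in pericytes and smooth muscle. Microglia read it at 157 and 196 CPM, oligodendrocyte precursors at 129 and 113 CPM and endothelial nuclei at 202 and 248 CPM. Among neurons it was higher in near-projecting (602 and 550.1 CPM), middle-layer (492 and 639 CPM) and layer 6b neurons (497 and 541 CPM) than in upper-layer neurons (134 and 200 CPM). After thinning, Grm3 was detected in 79.7% and 66.3% of pericyte and smooth muscle nuclei, from 59 and 83 nuclei, and in 15% and 20.8% of microglia. Without thinning these shares were 82.8% and 72.3% and 18.8% and 25.8%.

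GABA-A alpha subunit genes divided the neurons. Gabra2 had 891 CPM (855 to 928) and 646 CPM (614 to 678) in dentate granule nuclei, 862 and 709.7 CPM in CA1 neurons and 687 and 552 CPM in upper-layer neurons, and stood at 151 and 104 CPM in parvalbumin interneurons. Gabra3 was lowest in dentate granule nuclei, at 11.6 CPM (7.84 to 16.6) and 9.22 CPM (5.84 to 13.8), while upper-layer neurons had 114 and 126 CPM. Gabra4, which joins the delta subunit in receptors outside synapses, was highest in Drd2 nuclei, at 309 CPM (275 to 347) and 286 CPM (244 to 332), with Drd1 nuclei at 275 and 250.2 CPM and dentate granule nuclei at 247 and 252 CPM. Gabra5, known from hippocampal dendrites, had 221 CPM (200 to 243) and 192 CPM (171 to 214) in CA1 neurons and 206 and 211 CPM in layer 6b neurons, and stood at 25.3 and 23.5 CPM in Sst interneurons.

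**Figure D2:**
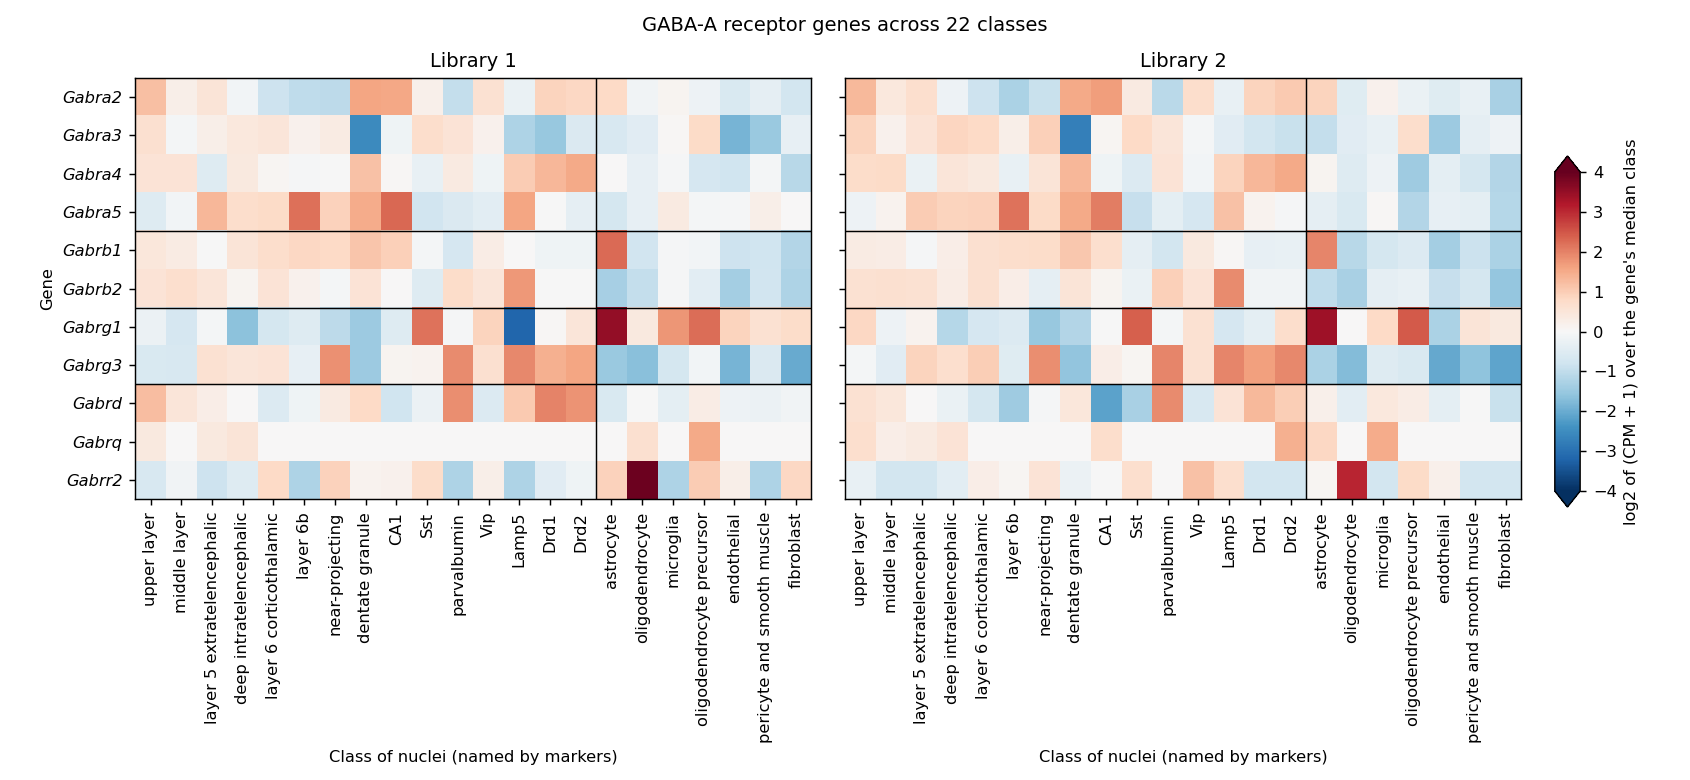
Level of the GABA-A receptor genes reported here in 22 classes of nuclei, one panel per library; colour is log2 of (CPM + 1) over the gene's median class, limited at 4 and -4, horizontal lines part alpha, beta, gamma and other subunits and the vertical line parts neurons from other classes. Gabrg1 and Gabrb1 are red in astrocytes, Gabrr2 in oligodendrocytes (34.1 and 12.7 CPM), and Gabra3 is blue in dentate granule nuclei.

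Among the beta subunits, Gabrb2 was highest in Lamp5 interneurons, at 1020 CPM (940.4 to 1105) and 1178 CPM (1094 to 1267), ahead of parvalbumin interneurons at 516 and 612 CPM. Gabrb1 was highest in astrocytes, at 3718 CPM (3609 to 3830) and 3111 CPM (3016 to 3209), with dentate granule nuclei second at 1673 and 1684 CPM. The gamma subunit gene Gabrg3 was highest in Lamp5 interneurons, at 2508 CPM (2382 to 2639) and 2932 CPM (2798 to 3071), and parvalbumin interneurons, at 2455 CPM (2385 to 2526) and 2927 CPM (2840 to 3016), whose intervals overlapped. Dentate granule nuclei read Gabrg3 at 242 and 255 CPM. Gabrd, the delta subunit of receptors outside synapses, had 84.8 CPM (72.2 to 98.9) and 67.2 CPM (54.6 to 81.9) in parvalbumin interneurons and 92 CPM (77 to 109) and 44.2 CPM (31.8 to 59.7) in Drd1 nuclei. Gabrq had 33 UMIs in all nuclei, too few to order the classes, with 0 and 1.81 CPM in microglia and 1.88 and 0 CPM in oligodendrocyte precursors.

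Many GABA-A genes lie in clusters on the chromosomes. On chromosome 5 of GRCm38, Gabrg1 and Gabra4 lie 727.1 kb apart, and Pearson's r of their log2 (CPM + 1) across the 22 classes was -0.47 and -0.394. Over the 15 neuron subtypes alone it was -0.335 and -0.364. Gabra2 and Gabra4, which lie 473.9 kb apart there, had r of 0.453 and 0.413, and 0.343 and 0.233 over the neuron subtypes. On chromosome 7, Gabrg3 and Gabra5 lie 20.5 kb apart and had r of 0.141 and 0.281, and r of the opposite sign, -0.176 and -0.266, over the neuron subtypes. Over the 13 GABA-A pairs under 1 Mb apart the median r was 0.394 and 0.407, and over the 77 pairs on different chromosomes it was 0.0701 and 0.146. Without the glial and vascular classes these medians were 0.171 and 0.0879 for the near pairs and -0.0754 and -0.0664 for the others. These values describe the classes and carry no test, since the classes share libraries, depth and free RNA. Gabra4 and Gabrb1 overlap at their starts on opposite strands, so their reads may not be told apart, and reads of Gabra5 are uncertain for the same reason.

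The first comparison set all inhibitory nuclei of the cortex against all excitatory nuclei. A gene was called where CPM + 1 differed by at least 2-fold in the same direction in both libraries. Of 40 receptor genes read, 5 were higher in inhibitory nuclei and 4 lower, against 3.43% and 2.97% of 17758 genes. Grik1 had 1340 and 1421 CPM in inhibitory and 90.5 and 107 CPM in excitatory nuclei, a difference of 14.8-fold (14.2 to 15.4) and 13.3-fold (12.8 to 13.8). Grin2d differed by 11.1-fold and 6.2-fold and Grin3a by 8.68-fold and 7.73-fold. Gabrg3 differed by 2.94-fold and 2.6-fold and Grik2 by 2.34-fold and 2.17-fold. The 4 genes lower in inhibitory nuclei were the metabotropic genes Grm2 (4.29-fold and 4.75-fold), Grm3 (2.65-fold and 2.25-fold) and Grm8 (2.27-fold and 2.4-fold) and the kainate receptor gene Grik4 (2.17-fold and 2.05-fold). None of the 4 AMPA and 8 alpha and beta subunit genes reached 2-fold in both libraries. The median log2 difference of the 40 genes was 0.02 and -0.12, and that of all genes was 0.04 and 0.09. Grik4 and Grm8 were no longer called with nuclei thinned to 1500 UMIs or weighted equally, Grm3 with doublets kept, and Grik4 and Grm2 with 10 CPM added in place of 1.

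**Figure D3:**
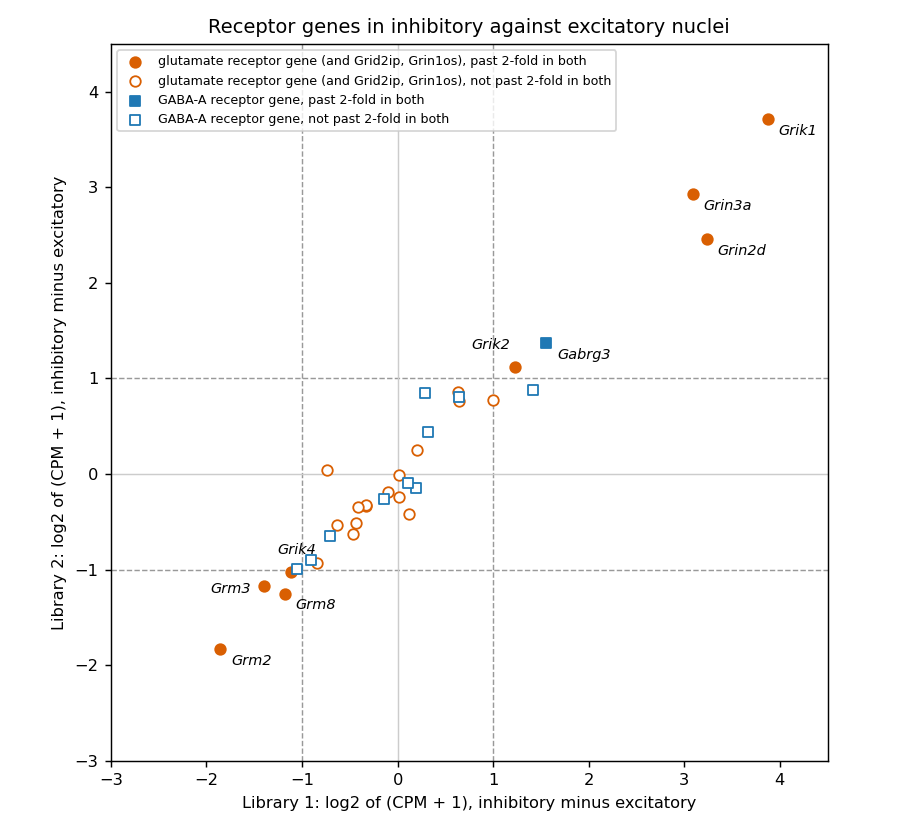
Log2 of (CPM + 1) in inhibitory minus excitatory nuclei for the receptor genes reported here, library 1 on the horizontal and library 2 on the vertical axis; circles are glutamate receptor genes, squares GABA-A genes, filled symbols are past the dashed 2-fold lines in both libraries. Grik1, Grin3a and Grin2d stand apart at the upper right, and Grm2 is the lowest of the 4 named genes at the lower left.

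Within the interneurons, parvalbumin and Sst nuclei, which share an origin in the medial ganglionic eminence, differed in 13 of 36 receptor genes. There were 4 genes higher in parvalbumin nuclei and 9 lower, against 2.7% and 2.8% of 11680 genes. Among the higher genes were the GABA-A genes Gabrb2 (2.38-fold and 2.34-fold), Gabrg3 (3.38-fold and 3.62-fold) and Gabrd (4.51-fold and 10.4-fold). Gabrd had 84.8 and 67.2 CPM in parvalbumin and 18.8 and 6.48 CPM in Sst nuclei. Among the lower genes were the metabotropic genes Grm4 (3.62-fold and 3.12-fold), Grm7 (3.44-fold and 3.1-fold) and Grm8 (2.08-fold and 2.8-fold). Grin3a was lower by 15-fold (12.8 to 17.8) and 19.6-fold (15.7 to 24.6). Grik3 (4.71-fold and 3.78-fold), Gabra2 (2.27-fold and 2.75-fold) and Gabrg1 (5.06-fold and 6.35-fold) were lower too. The calls of Gabrb2 and Grm4 were lost at Leiden resolution 2, those of Grm4 and Gabrg1 after thinning, and that of Grm8 at a limit of 1% mitochondrial UMIs and with 10 CPM added. Sst nuclei read Gabrg1 at 39.7 and 34.8 CPM, the highest level among the neuron subtypes of a gene whose highest class was astrocytes.

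Vip and Lamp5 interneurons arise from the caudal ganglionic eminence for the most part, and their pool was set against the pool of parvalbumin and Sst nuclei. Of 37 receptor genes, 2 were higher and 6 lower, against 2.88% and 2.72% of 12734 genes. Grik4 (3.07-fold and 2.53-fold) and Gabra5 (2.42-fold and 2.12-fold) were higher. Grik3 (5.67-fold and 7.82-fold), Grin3a (3.03-fold and 2.55-fold), Gria1 (2.52-fold and 2.83-fold), Gria3 (2.34-fold and 2.38-fold) and Gabrd (2.2-fold and 2.21-fold) were lower. Grin2c was also called lower, from 1 and 2 UMIs against 14 and 12, and its ratio in library 2 had an interval of 0.669 to 27.6, which spans equality. Gabra5 was no longer called with doublets kept, at Leiden resolution 2 or with 10 CPM added. Grin3a lost its call at resolution 2, and Gabrd and Grin2c lost theirs after thinning and with 10 CPM added. The subtypes in either pool were unlike in some genes. The Vip and Lamp5 pool had 191 and 220.2 CPM of Grin3a, below Sst (1259 and 1155 CPM) and above parvalbumin nuclei (83.7 and 59 CPM). It had 25.9 and 17.8 CPM of Gabrd, below parvalbumin (84.8 and 67.2 CPM) and above Sst nuclei (18.8 and 6.48 CPM). Gabra5 stood at 133 and 103 CPM in Lamp5 but 32.5 and 28.5 CPM in Vip nuclei, near the 29.3 and 34.3 CPM of parvalbumin nuclei. Lamp5 nuclei read Grin2a at 3595 and 4696 CPM and Vip nuclei at 909 and 1129 CPM.

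Striatal projection neurons are GABA neurons of another brain region, and were set against the cortical inhibitory nuclei. Of 38 receptor genes, 4 were higher and 6 lower, against 4.36% and 7.72% of 13869 genes. Grik1 had 29.8 and 29 CPM in striatal projection nuclei and was lower by 44.9-fold (36.1 to 56.6) and 49-fold (36.9 to 66.5). Grin3a was lower by 16.8-fold and 18.1-fold and Grin2d by 12.5-fold and 11.3-fold. The same 3 genes were the ones furthest above excitatory nuclei in the first comparison, with which this one shares the inhibitory nuclei. Gabra3 (3.05-fold and 2.3-fold) and Gria4 (2.25-fold and 2.61-fold) were lower as well. Higher were Grm3 (5.6-fold and 3.9-fold), Grm4 (3.67-fold and 4.61-fold), Grm7 (2.63-fold and 2.08-fold) and Gabra4 (2.29-fold and 2.17-fold). Grm7 was no longer called with doublets kept or after thinning. Grm5 reached 4112 and 4526 CPM in striatal projection nuclei and 2200 and 2305 CPM in inhibitory nuclei, and did not reach 2-fold in both libraries.

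Dentate granule nuclei were set against all other excitatory nuclei. Of 40 receptor genes, 3 were higher and 8 lower, against 2.94% and 5.03% of 17426 genes. Gria1 (2.38-fold and 2.71-fold) and Grm2 (2.2-fold and 3.05-fold) were among the higher genes. Gabra3 was lower by 7.81-fold (5.46 to 11.6) and 11.3-fold (7.53 to 17.9), with 11.6 and 9.22 CPM against 90.8 and 104 CPM. Gria4 was lower by 4-fold and 4.53-fold and Gabrg3 by 2.69-fold and 3.54-fold. Grik1 (3.56-fold and 3.78-fold) and Grm3 (3.79-fold and 3.04-fold) were lower too, as were Grm4 (5.7-fold and 10.7-fold), from 10 and 5 UMIs, and Gabrg1 (2.51-fold and 3.66-fold), from 6 and 5 UMIs. Grm8 was lower by 2.73-fold and 9.46-fold, so the libraries differed more in this gene than in the others. Grm2 was no longer called after thinning, with nuclei weighted equally or with 10 CPM added, and Gabrg1 at 1% mitochondrial UMIs, with equal weights or with 10 CPM added. At Leiden resolution 2 the cluster that took the dentate name shared 1 of its 404 nuclei with the class described here, and 3 of the 11 calls were made in it.

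Neurons and glia were set against each other as the mean CPM over the 15 neuron subtypes and over astrocytes, oligodendrocytes and microglia. Of 40 receptor genes, 19 were higher in neurons and 4 lower, against 3.88% and 13.3% of 17896 genes. The median log2 difference was 1.09 and 1.05 for the receptor genes and -0.23 and -0.36 for all genes. The NMDA receptor genes Grin1, Grin2a, Grin2b and Grin2d were all higher in neurons. Grin2a, for example, had 2205 and 2888 CPM in neurons and 647 and 652 CPM in glia. With the doublet score limit removed, no cluster was named CA1, 10 genes were higher in neurons, and Grin1 and Grin2b were among those no longer called. Grin2d and Gabrr2 were among those no longer called with 10 CPM added. The 4 genes higher in glia were Grin2c, Gabrg1, Grm3 and Gabrr2.

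Grin2c, a subunit of NMDA receptors that resist magnesium block, was an astrocyte gene. It had 329 CPM (297 to 364) and 189.7 CPM (167 to 215) in astrocytes. The highest neuronal levels were those of parvalbumin (5.23 and 4.12 CPM) and Sst interneurons (2.89 and 4.86 CPM) in library 1 and library 2 respectively. Microglia had 5 and 2 UMIs, or 9.32 CPM (3.03 to 21.8) and 3.62 CPM (0.439 to 13.1). Astrocytes exceeded microglia by 35.3-fold (15 to 109.5) and 52.4-fold (14.3 to 435). After thinning to 1500 UMIs, which kept 428 of 445 and 424 of 428 astrocytes, Grin2c was detected in 37.4% (32.8 to 42.2) and 19.8% (16.1 to 23.9) of astrocytes and 1.11% and 0.926% of microglia, and before thinning in 52.1% and 39% and 2.14% and 0.889%. The level in library 2 lay below that in library 1, with a ratio of 0.576 (0.489 to 0.677).

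Of the 35 receptor genes read in astrocytes and microglia, 6 were higher in astrocytes and 0 lower, against 8.4% and 8.1% of 11732 genes. Beside Grin2c they included Grm3 (8.35-fold and 11.1-fold), Gabrb1 (5-fold and 6.29-fold), Gabrg1 (3.43-fold and 6.53-fold) and Grin3a (3.03-fold and 3.85-fold). Gabrg1 had 102 CPM (84.9 to 122) and 70.9 CPM (57.2 to 87) in astrocytes, against 29.8 and 10.9 CPM in microglia and 14.1 and 7.85 CPM in fibroblasts. After thinning it was detected in 14.7% and 10.8% of astrocytes and 3.89% and 1.39% of microglia, from 21.1% and 18.5% and 4.7% and 2.67% before. The median log2 difference of the 35 genes was -0.73 and -0.40, against -0.16 and -0.20 for all genes. Grin2a, for example, stood at 388 and 494 CPM in astrocytes and 1010 and 943 CPM in microglia.

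Grin2c and Gabrg1 were the receptor genes highest in astrocytes in both libraries beside Gabrb1, and the 250 bases before their RefSeq start sites on GRCm38.p6 are printed to show how unlike these 2 promoters are in G and C content. Both lie on the minus strand, at chr11:115267244-115267493 and chr5:70842618-70842867, upstream of the first exon, and are written 5′ to 3′ with capitals for the GC box, GGGCGG on either strand.
Grin2c: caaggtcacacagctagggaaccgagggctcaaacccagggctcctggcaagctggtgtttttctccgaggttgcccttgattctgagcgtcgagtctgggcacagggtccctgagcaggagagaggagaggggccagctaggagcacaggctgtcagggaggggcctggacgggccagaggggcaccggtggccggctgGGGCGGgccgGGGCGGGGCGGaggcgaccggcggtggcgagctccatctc
Gabrg1: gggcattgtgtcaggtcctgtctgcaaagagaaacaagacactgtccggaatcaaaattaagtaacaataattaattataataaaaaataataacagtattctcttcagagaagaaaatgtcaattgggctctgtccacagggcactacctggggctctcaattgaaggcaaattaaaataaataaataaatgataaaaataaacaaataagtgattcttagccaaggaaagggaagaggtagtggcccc
The Grin2c window had 68.8% G and C with 3 GC boxes, and the Gabrg1 window had 35.6% with 0. The Gabrb1 windows, not printed, had 64.4% and 50.8% and no GC box. The printed windows are thus the extremes among these astrocyte-high genes. RefSeq promoter windows matched 32 of the 47 genes, with 40 windows in all. Some genes had several windows, and some of these overlap, so the 40 are not independent promoters. Windows of identical sequence were counted once in the total over all mouse windows. A GC box occurred in 18 of these 40 and in 33% of all 32536 mouse windows of that length. The short site of the nuclear factor I family (TTGGCA) occurred in 3 of 40 and 12.3% of all windows, and its full site (TTGGC and GCCAA with 5 bases between) in 0 and 0.0369%. The TATA box (TATAAA) was found in 4 of 40 and 12.3%, the E-box CAGCTG in 1 and 13.1%, and the cyclic AMP element TGACGTCA in 0 and 1.56%. Gabra3 has overlapping windows that each count for the TATA box. The left and right ends of the RE1 element, TCAGCACC and GGACAG, were found in 1 and 13 of 40, against 1.33% and 18.8% of all windows. Both strands were searched, the short and full sites of nuclear factor I share their first letters, and a match is a description of the letters alone.

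**Figure D4:**
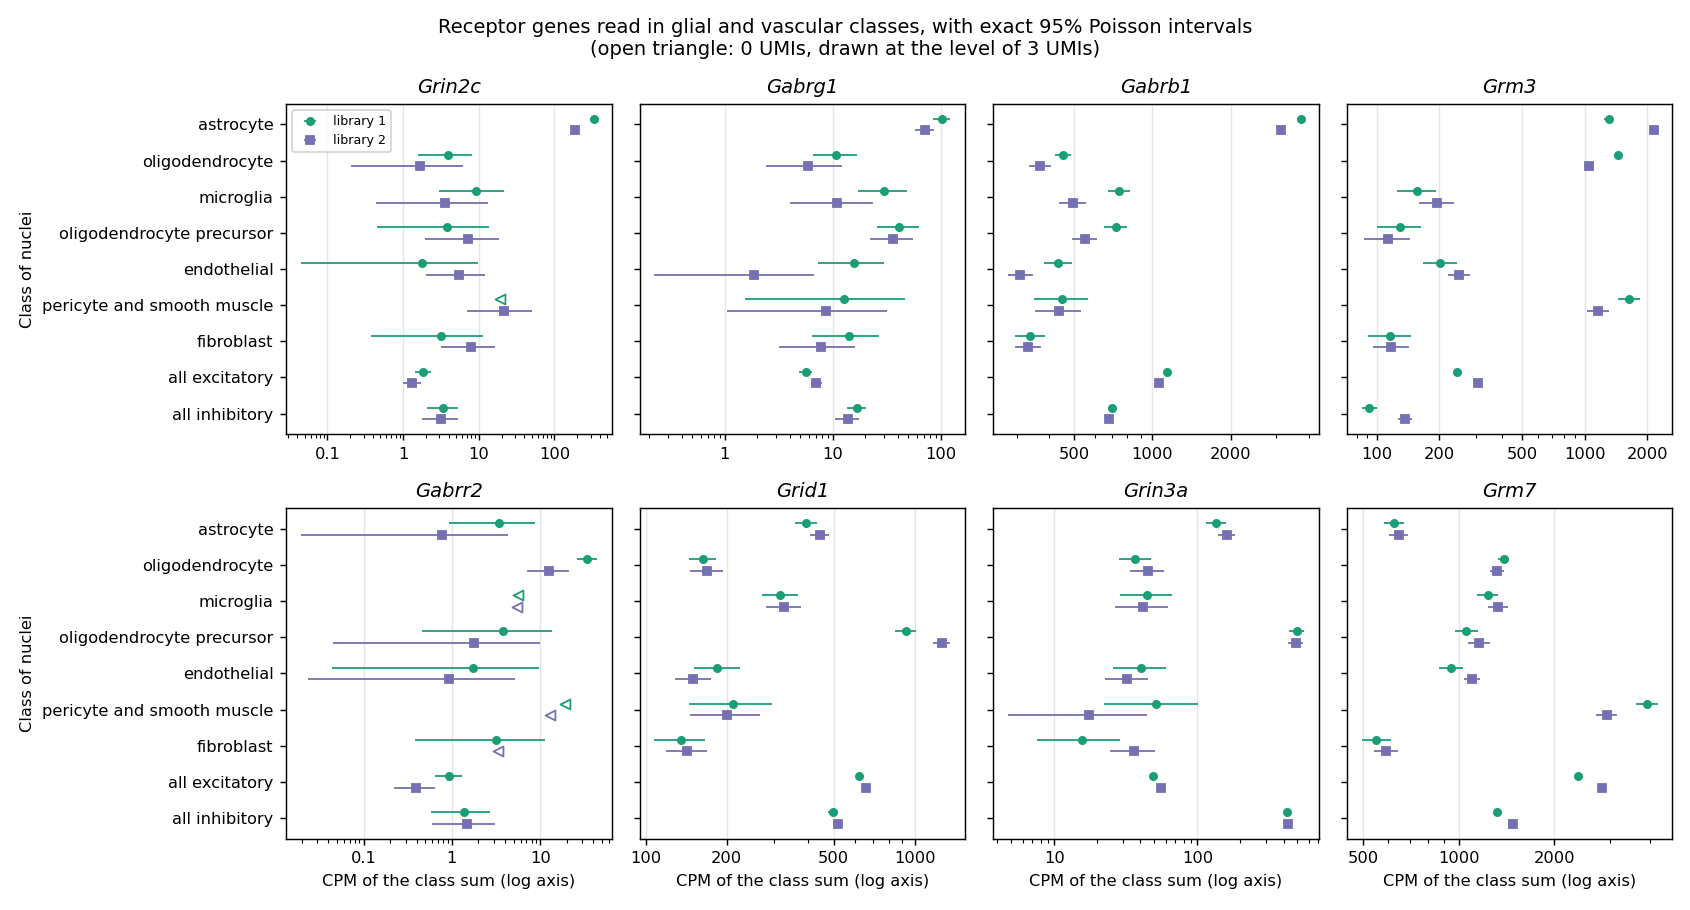
Level of 8 receptor genes in glial and vascular classes and in all excitatory and all inhibitory nuclei; points are CPM of the class sum on a log axis, bars are exact 95% Poisson intervals, circles are library 1 and squares library 2, and open triangles stand for 0 UMIs at the level of 3 UMIs. Grin2c, Gabrg1 and Gabrb1 are highest in astrocytes, Gabrr2 in oligodendrocytes, Grid1 and Grin3a in oligodendrocyte precursors, and Grm7 in pericytes and smooth muscle, where its interval in library 1 lies above those of all other classes shown.

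Oligodendrocyte precursors and mature oligodendrocytes belong to 1 lineage. Of 36 receptor genes, 8 were higher in precursors and 2 lower, against 6.64% and 7.25% of 11429 genes. Grin3a was higher by 13.4-fold (10.2 to 17.8) and 10.8-fold (8.03 to 14.8) and Grid1 by 5.69-fold and 7.47-fold. Grik3 (4.63-fold and 3.68-fold), Grik4 (2.66-fold and 5.18-fold), Gabrg1 (3.83-fold and 6.06-fold), Gabrg3 (2.94-fold and 2.18-fold) and Gabra3 (2.35-fold and 2.23-fold) were higher as well. Gabrg3 was no longer called after thinning, and Gabrr2, the other lower gene beside Grm3, with 10 CPM added. Grik1 stood at 386 and 452 CPM in precursors and 232 and 168 CPM in oligodendrocytes. Grm3 was lower in precursors by 11.1-fold (8.77 to 14.4) and 9.25-fold (7.18 to 12.1). Gabrr2, a rho subunit known from the retina, had 34.1 CPM (26 to 43.9) and 12.7 CPM (7.12 to 21) in oligodendrocytes from 60 and 15 UMIs, and 2 and 1 UMIs in precursors. Microglia had 0 UMIs of Gabrr2 in both libraries, which allows up to 5.59 and 5.43 CPM at 3 UMIs. The Gabrr2 shares of nuclei after thinning, over 779 of 895 and 418 of 425 oligodendrocytes, were small, 4.24% (2.93 to 5.9) and 1.68% (0.676 to 3.42) of oligodendrocytes, from 5.81% and 3.06% before.

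Pericytes and smooth muscle cells, the contractile cells of vessel walls, formed a small class of 64 and 83 nuclei. Beside Grm3, they read Grm7 at 3909 CPM (3605 to 4231) and 2929 CPM (2711 to 3158), while endothelial nuclei had 946 and 1100 CPM, fibroblasts 551 and 589 CPM and microglia 1234 and 1329 CPM. Drd2 striatal nuclei, among the neurons highest in Grm7, stood at 3462 and 3142 CPM. The class read Grin1 at 179 and 165 CPM, against endothelial nuclei at 127 and 139 CPM, fibroblasts at 151 and 114 CPM and microglia at 309.5 and 197 CPM. It read Gria1 at 517 and 618 CPM, against 424 and 346 CPM, 317 and 362 CPM and 719.6 and 795 CPM in the same 3 classes. Both genes, and Gria2 (945 and 975 CPM) and Grin2a (639 and 831 CPM) too, thus lay above endothelial nuclei and fibroblasts and below microglia, and the part of neuronal RNA in the Grm7 level was not tested.

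The make-up of AMPA and NMDA receptors was described as the share of their UMIs that came from 1 subunit, with exact 95% Clopper-Pearson intervals. Such a share compares classes and does not give the proportion of the proteins. Gria2 supplied 30.7% (30.5 to 30.9) and 30.0% (29.9 to 30.2) of AMPA receptor UMIs in excitatory nuclei and 18% (17.6 to 18.4) and 16.9% (16.4 to 17.3) in inhibitory nuclei. The lowest shares of the 22 classes were in 2 interneuron subtypes, Sst at 13.8% (13.1 to 14.4) and 13.3% (12.7 to 14) and parvalbumin at 16.3% (15.7 to 16.9) and 14.6% (14 to 15.3), while Vip interneurons at 30.1% (28.8 to 31.3) and 31.1% (29.4 to 32.8) had a share near that of excitatory nuclei. In astrocytes the share was 57.4% (55.7 to 59.1) and 57.6% (55.9 to 59.3), and in microglia 39.4% (37.1 to 41.8) and 38.1% (35.8 to 40.5).

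Grin2a made up 55.8% (55.5 to 56) and 56.7% (56.5 to 56.9) of the summed Grin2a and Grin2b UMIs in excitatory nuclei. The highest shares of the 22 classes were 72.7% (71 to 74.3) and 72% (70.6 to 73.4) in Lamp5 interneurons and 69.5% (68.7 to 70.2) and 70.2% (69.5 to 70.8) in dentate granule nuclei. The lowest was that of Vip interneurons, 36.3% (34.5 to 38.1) and 36.5% (34.6 to 38.6). Layer 6b neurons, at 43.6% (42.1 to 45.1) and 42.5% (41.1 to 43.8), had the lowest share among excitatory classes. The interneuron subtypes thus spanned both ends of the range. Near-projecting neurons had 58.6% (56.1 to 61) and 64.9% (63.2 to 66.6), intervals that did not overlap between libraries.

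**Figure D5:**
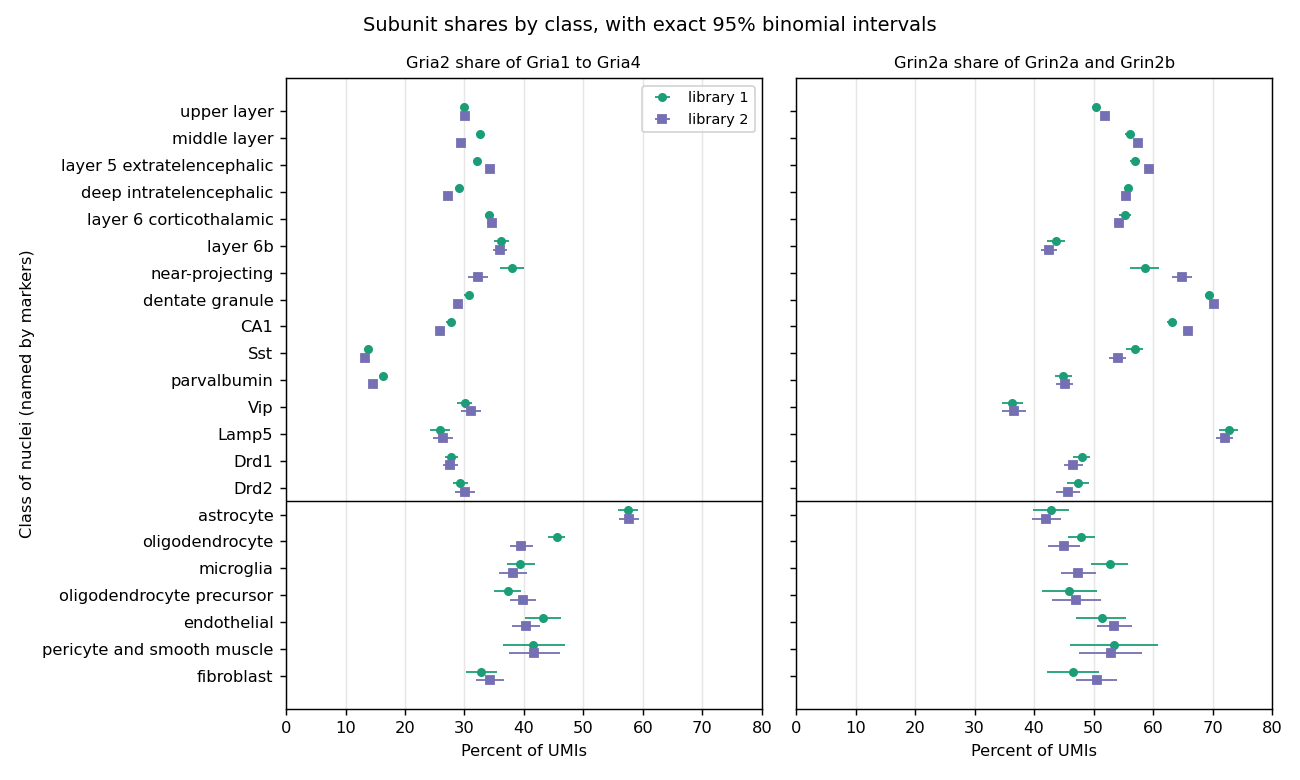
Percent of UMIs from 1 subunit gene in 22 classes, for Gria2 among the AMPA receptor genes and Grin2a among Grin2a and Grin2b; circles are library 1, squares library 2, and bars exact 95% binomial intervals. Sst and parvalbumin interneurons are lowest for Gria2, and Vip interneurons lowest for Grin2a.

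Genes of proteins that work with these receptors were taken as lists. Of 12 auxiliary subunit genes of AMPA receptors, 10 were highest in a neuron subtype in each library, against 34.4% and 31.5% of all genes. In dentate granule nuclei 4 of the 12 were higher than in other excitatory nuclei and 1 lower, against 2.94% and 5.03% of all genes. Shisa6 (3.37-fold and 3.59-fold) and Shisa9 (2.6-fold and 2.63-fold) were among the former and Olfm3 (3.17-fold and 3.64-fold) was the latter. Between parvalbumin and Sst nuclei 2 of the 12 were higher and 5 lower, against 2.7% and 2.8% of all genes, with Shisa6 lower by 10.1-fold and 10.3-fold and Shisa9 higher by 4.33-fold and 4.15-fold. Cacng4 was highest in oligodendrocyte precursors, at 756 and 825 CPM against 6.81 and 17.8 CPM in oligodendrocytes. Both kainate auxiliary genes were highest in neurons, Neto1 in Sst interneurons (703 and 1009 CPM) and Neto2 in near-projecting neurons (485 and 454 CPM).

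Of 14 glutamate receptor scaffold genes, 2 were higher and 4 lower in inhibitory than in excitatory nuclei, against 3.43% and 2.97% of all genes, the shares that also stand beside the counts of the next 2 lists. Grip1, which binds AMPA receptor tails, was higher by 15.2-fold and 10.5-fold, and Nlgn1, a synaptic adhesion protein, and Homer1, which ties metabotropic receptors to the scaffold, were lower by 2.15-fold and 2.09-fold (Nlgn1) and by 2.56-fold and 2.13-fold (Homer1). Dlg2 was highest in layer 6b neurons, at 8275 and 10260 CPM. Of 8 GABA-A scaffold genes, 0 were called in either direction between inhibitory and excitatory nuclei. Gphn, the gephyrin gene that anchors GABA-A receptors, was highest in astrocytes (1580 and 1329 CPM). Iqsec3 was highest in parvalbumin interneurons, at 178 and 128 CPM. Of 5 genes of the GABA-B receptor and its partners, Kctd8 was higher in inhibitory nuclei, by 5.05-fold and 4.95-fold, and the other 4 were not called. Gabbr2 and Kctd16 were highest in Lamp5 interneurons, at 1158 and 1303 CPM (Gabbr2) and 4778 and 4350 CPM (Kctd16), and Gabbr1 in astrocytes, at 282 and 238 CPM.

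Few genes differed between the libraries by 2-fold, in the set as among all genes, so the counts below mark no trait of the set. In all excitatory nuclei 1 of 40 genes taken by symbol was at least 2-fold higher in library 2 and 0 were lower, against 4.48% and 2.54% of 17426 genes. Among receptor subunit genes the count was thus 0, since the gene was the noncoding Grin1os, with 3.07 and 14.9 CPM and a ratio of 4.87 (3.98 to 5.99), library 2 over library 1. It was also the 1 gene of 37 past 2-fold in inhibitory nuclei (3.4 and 10.9 CPM), where 5.03% and 4.31% of all genes were higher and lower. Grin1 itself stood at 570 and 447 CPM in excitatory nuclei, the opposite direction. In striatal projection nuclei Grin1os was higher and Gabrd lower among 34 genes, against 3.5% and 6.66%. Gabrd stood there at 86.6 and 40.5 CPM, a ratio of 0.468 (0.351 to 0.616). Gabrr2 in oligodendrocytes had a ratio of 0.374 (0.197 to 0.666) and was the 1 gene of 35 past 2-fold there, where 3.71% and 6.21% of all genes were higher and lower. In astrocytes 0 of 33 genes passed 2-fold, against 3.57% and 4.17%, and in pericytes and smooth muscle 0 of 25, against 4.33% and 5.35%. In microglia 0 of 32 genes were higher and 1, Gabrg1, lower, against 3.65% and 3.94%. The same counts were 0 and 1 (Gabra5) of 33 in oligodendrocyte precursors, against 3.21% and 5.38%, and 0 and 1 (Grik3) of 31 in endothelial nuclei, against 3.79% and 5.25%. In fibroblasts Grin3a of 31 genes was higher and 3 genes, Gabrd, Gabra5 and Grik1, were lower, against 3.53% and 4.91%. Several of these calls rest on few UMIs. Gabra5 in precursors had 22 and 11 UMIs and a ratio of 0.48 (0.21 to 1.033). Gabrd in fibroblasts had 13 and 8 UMIs and a ratio of 0.44 (0.158 to 1.145), so both intervals span equality. Gabrg1 had 16 and 6 UMIs in microglia, and Grin3a 10 and 32 in fibroblasts. Age, pool and library preparation cannot be told apart in these differences, since each library is 1 preparation of unstated age.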

How the data were processed

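Single-nucleus RNA-seq (10x) of 2 pools of 3 mice was analysed from the deposited matrix of raw UMI counts, 30905 genes by 17501 barcodes with 118655443 UMIs (58108297 and 60547146 by barcode suffix). Per the file headers, the deposited counts were written by Cell Ranger 3.1.0. The submitters' processing notes name Cell Ranger 2.0.1, Seurat 3.1, R 4.0.2 and mm10, and this difference is unsettled. The handling of intronic reads and of strand is not given in the sources used here. Genes with long introns may therefore be read more often, which acts on all classes of nuclei.

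The matrix held 0 columns of other samples. Barcodes were kept with at least 200 genes, at most 5% mitochondrial UMIs and a doublet score (scrublet) below 0.2. The automatic threshold marked 0 and 2 barcodes and had not worked, so this limit was set, and it removed 305 and 332. With scanpy 1.11.5, each nucleus was brought to a total of 10000 and put on a log scale, and 2000 variable genes without the receptor genes or their listed partners gave 30 components, 15 neighbours and Leiden clusters at resolution 1 (seed 1, leidenalg 0.10.2). Neurons were clustered again with scaling within each library. Names needed at least 3 detected markers and a lead over the next type. The lead was 1.3, or 1.5 where none of the type's markers was among the cluster's 10 most raised genes. Clusters under 0.5 of the median UMIs stayed unnamed only where they too had no such marker among those genes. The scaling and these thresholds were set after clusters had been seen.

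UMIs were summed by class and library and given as CPM with exact Poisson intervals (scipy 1.17.1). The call rule is 2-fold in CPM + 1 in both libraries with at least 20 UMIs in the classes compared. Where no UMI was seen, 3 UMIs set the upper limit. For shares of nuclei with a UMI, nuclei were thinned to 1500 UMIs and those below were left out, so shares before and after thinning are over different nuclei. The counting and calling steps were tested on simulated data. Every receptor gene found by symbol enters the counts, the values of some genes are not reported here, and intervals go to genes past 2-fold in a comparison or highest in a glial class. The members, gene lists and comparisons were chosen with earlier results of these data known. Gene positions come from GENCODE vM21 and promoters from RefSeq (GRCm38.p6). Alternatives changed the doublet, mitochondrial and clustering settings, depth, weighting of nuclei, minimum UMIs, fold limit and added CPM.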

Additional observations from a re-analysis of the deposited data

How the results depend on the processing

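Of 186 alternative values, 151 stayed near the value given and 35 moved. A count stayed near where it lay within a set fold of the main count. A share stayed near where it lay inside the counting interval of the main share, which is narrow where UMIs are many. These rules are unlike, so the totals are no single measure of stability. The cause of each move was not tested unless the setting itself gives it. These values are counts of genes and shares of UMIs, so a count can stay near while the genes behind it change. At Leiden resolution 2, for example, 3 genes were again higher in the dentate class, yet 3 of the 11 dentate calls were kept. Whether single genes reversed direction cannot be read from these values. With doublets kept, 10 genes were higher in neurons than in glia, and the Gria2 share of inhibitory nuclei was 18.6% and 17.4%. At a limit of 1% mitochondrial UMIs, 4 genes were higher in Vip and Lamp5 interneurons. The Grin2a share at that limit was 56.4% in both libraries for excitatory nuclei. For inhibitory nuclei it was 50.9% in library 1, against 51.9% in the main setting. At Leiden resolution 2, 4 genes were lower in the dentate class, which there held other nuclei, 1 was higher in Vip and Lamp5 interneurons, and in excitatory nuclei the Grin2a share was 54.4% and 55.5%. With nuclei thinned to 1500 UMIs, 2 genes were lower in inhibitory nuclei. The thinned Grin2a share was 56.4% in library 2 for excitatory nuclei. For inhibitory nuclei it was 52.9% and 52.3%, against 51.9% and 53.5% in the main setting. For precursors in library 1 it was 40.9% (32.7 to 49.4), from 142 UMIs, against 45.9% (41.4 to 50.5). The thinned Gria2 share was 30.5% in library 2 for excitatory nuclei, 19.4% and 17.4% for inhibitory nuclei and 40.0% in library 1 for precursors. The main Gria2 share of those precursors was 37.2%. With every nucleus given equal weight, 2 genes were lower in inhibitory nuclei. At 3-fold, fewer genes pass by construction: 3 higher and 1 lower in inhibitory nuclei, 2 higher and 3 lower in striatal nuclei, 4 higher in precursors, 0 higher and 5 lower in dentate nuclei, 2 higher in parvalbumin nuclei, 0 higher and 1 lower in Vip and Lamp5 interneurons, and 5 higher in neurons than in glia. With 10 CPM added, which shrinks low genes, 2 genes were lower in inhibitory nuclei, 1 lower in precursors and 1 higher in Vip and Lamp5 interneurons. Minimums of 1 and 50 UMIs moved 0 values.

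Some alternatives gave no value because a class was missing or small: the comparison of precursors with doublets kept, those of precursors, of astrocytes and of neurons with glia at 1% mitochondrial UMIs, and those of precursors and of neurons with glia at resolution 2. CA1 neurons had no class with doublets kept or at 1% mitochondrial UMIs, nor had precursors and endothelial nuclei in the latter, so the CA1 levels were not recomputed there and the neuron mean with doublets kept lacks CA1. At resolution 2, classes of the same name held 366 of the 1185 middle-layer, 390 of the 1320 oligodendrocyte and 176 of the 326 Sst nuclei. The levels given for these classes are those of the main clustering. No paired analysis was possible because each age is 1 pool and no suffix is tied to an age. Depth limits low genes most, such as Grin2c in neurons and Gabrr2 outside oligodendrocytes.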
